A study of Mus musculus with 11 samples.

Results

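The variable segments of the T cell receptor were examined in 11 RNA-seq libraries of activated mouse CD8+ T cells. They were taken as every row of the deposited expression table whose symbol starts with Trav (alpha chain) or Trbv (beta chain), which gave 115 Trav and 23 Trbv rows, 138 of the 25562 genes listed. The TRA and TRB measures of the deposited repertoire table (numbers of clonotypes and clones, entropy and clonality) were examined beside them. CD8+ T cells from C57BL/6 spleens were held for 22 h with 10 µg/mL of His-tagged recombinant human acyloxyacyl hydrolase, a lipase (AOAH, 4 libraries), with 60 µM of the phosphatidylcholine PC16:0-20:4 (PC, 3 libraries), or with vehicle (4 libraries). All groups were then activated for 24 h with 1 µg/mL of antibody to CD3 and 0.5 µg/mL of antibody to CD28. The AOAH and vehicle groups received the ethanol control, and the PC and vehicle groups received PBS with 10% glycerol. No glycerol is given for the AOAH group, so the enzyme and its buffer cannot be told apart. The labels disagree on whether AOAH was added before or at activation, on plate-bound antibody or beads, and on interleukin-2 in the medium. Libraries are numbered by batch within each group, and PC has no batch 4. The labels do not tie libraries to different mice or cultures, and the p-values below therefore describe spread among libraries that may be technical replicates.

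Each T cell builds its receptor genes by joining a variable segment to a joining segment in the alpha chain, with a diversity segment between them in the beta chain, and splicing the product to a constant region. CDR3, the loop that lies closest to the peptide in the receptor's binding site, opens at a conserved cysteine at the 3′ end of the variable segment and runs across the join. Each clone carries its own pair of segments, so in a mixed population the RNA of a segment depends on how many cells use it and on how much receptor RNA those cells hold. The mouse alpha locus contains duplicated blocks, and copies in them carry d or n in their names, while dv in a name marks a segment that delta chains can use too.

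By GENCODE M21 (GRCm38), 136 of the 138 rows matched an annotated segment, with Trav on chromosome 14 and Trbv on chromosome 6. That build differs from mm39, which the submitters' processing notes name, so positions are not given. Of the 136, 128 are annotated as variable segments with a coding sequence (106 Trav, 22 Trbv) and 8 as pseudogenes. The last 45 coding bases are shown for Trbv segments picked from the 10 of highest level, without Trbv3 and Trbv1, and for Trav segments on which the comparisons turn. They run 5′ to 3′, with the last in-frame TGT or TGC, the cysteine codon that opens CDR3, in capitals.
Trbv29: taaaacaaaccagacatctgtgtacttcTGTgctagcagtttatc
Trbv14: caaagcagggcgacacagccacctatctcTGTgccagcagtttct
Trbv13-1: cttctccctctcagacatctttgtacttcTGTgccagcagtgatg
Trbv13-2: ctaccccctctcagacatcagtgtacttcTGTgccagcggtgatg
Trbv13-3: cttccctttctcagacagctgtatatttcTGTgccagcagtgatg
Trbv12-1: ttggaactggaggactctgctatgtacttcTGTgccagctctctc
Trbv12-2: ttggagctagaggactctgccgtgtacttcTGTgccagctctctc
Trbv16: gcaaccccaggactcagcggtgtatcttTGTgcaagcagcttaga
Trav12-1: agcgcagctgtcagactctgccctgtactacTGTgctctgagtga
Trav12-3: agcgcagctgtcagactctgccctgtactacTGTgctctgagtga
Trav12d-3: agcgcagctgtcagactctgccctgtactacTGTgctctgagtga
Trav12n-3: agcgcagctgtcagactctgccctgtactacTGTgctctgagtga
Trav7-2: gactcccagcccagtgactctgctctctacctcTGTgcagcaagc
Trav7d-2: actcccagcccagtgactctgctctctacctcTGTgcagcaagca
Trav19: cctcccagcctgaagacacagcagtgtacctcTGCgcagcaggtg
The 9 bases from the cysteine codon read TGTgccagc in 13 of the 22 Trbv segments and TGTgctctg in 17 of the 106 Trav segments, the start most often seen in each locus. The 4 Trav12 segments shown share the whole stretch, while the 3 Trbv13 segments differ from each other within it. Over the full coding sequence Trbv13-2 matched Trbv13-1 at 87.9% and Trbv13-3 at 90.6% of bases, and Trbv12-1 matched Trbv12-2 at 88.2%. No Trbv segment had another at 98% identity or more, whereas 52 of the 106 Trav segments did.

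The cells carried the markers of CD8 T cells in every library. Summed TPM, the length-corrected share of a library's transcripts, over Cd3e, Cd8a, Cd8b1, Trac, Trbc1 and Trbc2 was 1948 to 1984 with AOAH, 2504 to 2526 with PC and 2090 to 2160 with vehicle. Cd4, Zbtb16, Klrb1c, Cd79a and Ms4a1, defining genes of CD4 T, NKT, NK and B cells, were at or below 1 TPM in all 11 libraries, while other genes of those lists were higher. Of the 4 genes of the CD4 T cell list only Cd4 stayed at or below 1 TPM, and Zbtb7b reached 6.10 TPM and Cd40lg 3.12 TPM. That list summed to 3.69 to 6.88 TPM with AOAH, 6.33 to 9.03 with PC and 3.87 to 6.04 with vehicle, and its part in the results was not tested. The summed B cell list (7 genes, 2 of them at or below 1 TPM everywhere) was 136 to 144 TPM with AOAH, 173 to 178 with PC and 157 to 162 with vehicle, most of it from Ighm (124 to 167 TPM), and its part in the results below was not tested. Summed TPM per library lay between 998406 and 998655, and the read depth of each library is unknown because TPM keeps none.

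Among the beta segments, Trbv29, Trbv14, Trbv13-2 and Trbv12-2 held the 4 highest mean levels in all 3 groups, in that order with vehicle and PC, while with AOAH Trbv12-2 (81.9 TPM) and Trbv13-2 (81.4 TPM) were nearly level. Trbv29 stood at 135, 148, 138 and 123 TPM in vehicle 1 to 4, at 126, 151, 116 and 119.9 TPM in AOAH 1 to 4 and at 148, 164 and 156 TPM in PC 1 to 3. Trbv14 stood at 83.6, 125, 107 and 124 TPM in vehicle 1 to 4. Its values with AOAH were 118, 101, 89.2 and 81.9 TPM and with PC 145, 141 and 154 TPM. The PC libraries of Trbv29 lay just above all vehicle libraries, and AOAH overlapped both groups. With vehicle, neighbours among these 4 overlapped, as Trbv14 did with Trbv13-2 (75.0, 89.1, 85.1 and 94.8 TPM), whereas with PC Trbv14, Trbv13-2 and Trbv12-2 did not overlap each other. After Trbv12-2 (mean over the 11 libraries 89.4 TPM) followed Trbv3 (77.7), Trbv13-1 (70.3), Trbv12-1 (70.0), Trbv13-3 (64.3), Trbv16 (62.4) and Trbv1 (58.7). The 23 segments spanned means of 0.256 to 139 TPM, and 19 of them exceeded 10 TPM. The lowest were Trbv21, Trbv30 and Trbv24, each listed at 0 in at least 1 library.

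**Figure D1:**
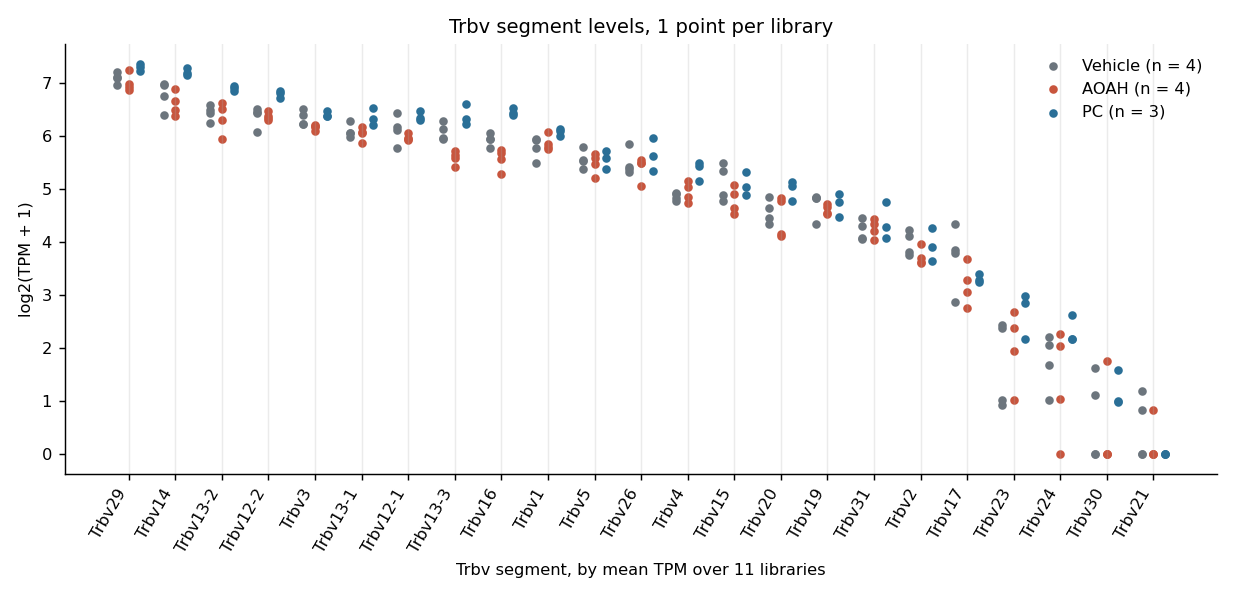
Level of each of the 23 Trbv segments on the log2(TPM + 1) scale (vertical axis), with segments ordered by mean TPM over the 11 libraries (horizontal axis) and 1 point per library in vehicle (grey, n = 4), AOAH (red, n = 4) and PC (blue, n = 3). The levels run from Trbv29 at 139 TPM on average down to Trbv21 at 0.256 TPM, and the PC points of Trbv14, Trbv13-2, Trbv12-2 and Trbv16 lie above all vehicle points.

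The alpha chain was spread over more segments at lower levels. Of 115 Trav rows, 94 averaged 1 TPM or more across all libraries, 21 exceeded 10 TPM, and 45 were listed at 0 in at least 1 library. The highest was Trav7-2 at a mean of 29.2 TPM, followed by Trav16n (27.8), Trav16 (21.7), Trav12-2 (21.4), Trav14n-3 (20.5), Trav12d-3 (16.7), Trav6-6 and Trav6d-6 (16.3 each), Trav3-3 (15.9) and Trav14d-1 (15.1). The variation between vehicle libraries was larger for alpha segments, with a median coefficient of variation of 41.2% over Trav and 16.4% over Trbv, and these medians were 27.7% and 14.1% among segments of at least 5 TPM. The 8 rows annotated as pseudogenes were low (median 0.412 TPM), and all 8 were at 0 in some library. The effective number of segments, the exponential of the Shannon entropy of their shares of the locus, was 62.8 to 69.9 for Trav and 15.8 to 16.7 for Trbv over the 11 libraries. The 5 highest Trbv segments together made up 45.1% to 49.6% of the beta total, and the 5 highest Trav segments 16.9% to 22.2% of the alpha total.

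Near-identical copies held values that bear on single rows. In 15 pairs of Trav rows, such as Trav6-6 and Trav6d-6 or Trav14d-1 and Trav14n-1, both rows held the same TPM in every library, and 14 of these pairs have the same coding sequence. Trav7-2 and Trav7d-2, whose coding sequences of 336 and 337 bases differ by 1 base, were never both above 0 in the same library: Trav7-2 was listed at 0 in AOAH 1, where Trav7d-2 stood at 46.4 TPM, and Trav7d-2 was listed at 0 in all other libraries. Trav12d-3 and Trav12n-3 have the same 347 coding bases, yet Trav12d-3 held 17.4, 22.0, 31.7 and 24.7 TPM in AOAH 1, AOAH 2, PC 2 and PC 3 with Trav12n-3 listed at 0, and in vehicle 2 Trav12n-3 held 18.1 TPM with Trav12d-3 at 0. Single values of these rows are therefore uncertain. For the comparisons the copies of each segment were also summed, an alternative chosen after these values had been seen.

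**Figure D2:**
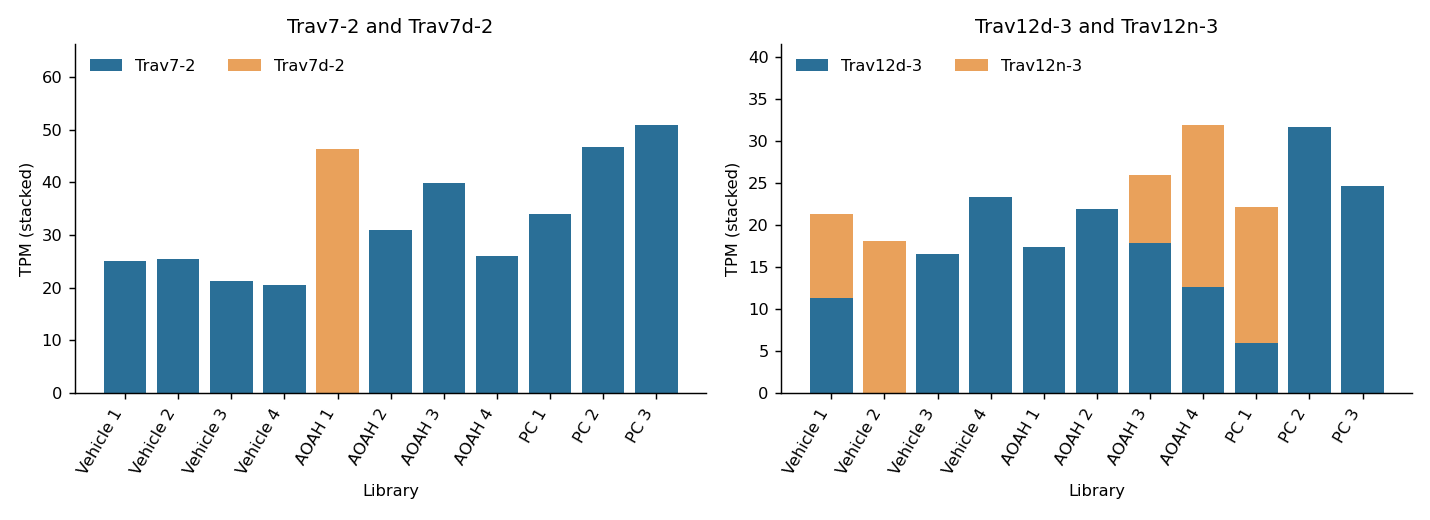
TPM of 2 pairs of near-identical alpha segments in each library (horizontal axis), stacked so that the bar height is their sum (vertical axis, TPM). In AOAH 1 the whole bar of the left panel belongs to Trav7d-2 (46.4 TPM), and in the right panel the split between Trav12d-3 and Trav12n-3 changes from library to library.

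The summed variable segments were highest with PC in both loci. Summed Trav was 769, 823 and 825 TPM in PC 1 to 3, against 597, 592, 588 and 639 TPM in vehicle 1 to 4 and 642, 673, 625 and 661 TPM in AOAH 1 to 4. Summed Trbv was 1285, 1324 and 1271 TPM with PC, against 1004, 1075, 1066 and 1120 TPM with vehicle and 1006, 1008, 948 and 919 TPM with AOAH. All PC libraries lay above all others in both loci. The ratio of PC to vehicle 1 to 3 was 1.36 for Trav and 1.23 for Trbv, with differences within batches 1, 2 and 3 of 172, 231 and 237 TPM for Trav and 281, 249 and 205 TPM for Trbv. Exact two-sided permutation tests gave p = 0.1 in each locus, the smallest that 3 against 3 libraries allow (0.1 after Benjamini-Hochberg adjustment over 6 totals). AOAH against PC gave a ratio of 0.807 for Trav and 0.75 for Trbv, with exact p = 0.0286, the smallest for 4 against 3, and adjusted p = 0.0857. With AOAH the 2 loci lay on opposite sides of vehicle, at a ratio of 1.08 for Trav (exact p = 0.0571) and 0.91 for Trbv (exact p = 0.0857), both with adjusted p = 0.1, and the ranges overlapped. Within batches 1 to 4, AOAH minus vehicle was 45.5, 81.2, 36.8 and 21.7 TPM for Trav and 1.64, -67.3, -118 and -201 TPM for Trbv. TPM is a share of a library's transcripts. In these bulk samples, more cells with receptor RNA, more receptor RNA per cell and less of other RNA cannot be told apart.

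**Figure D3:**
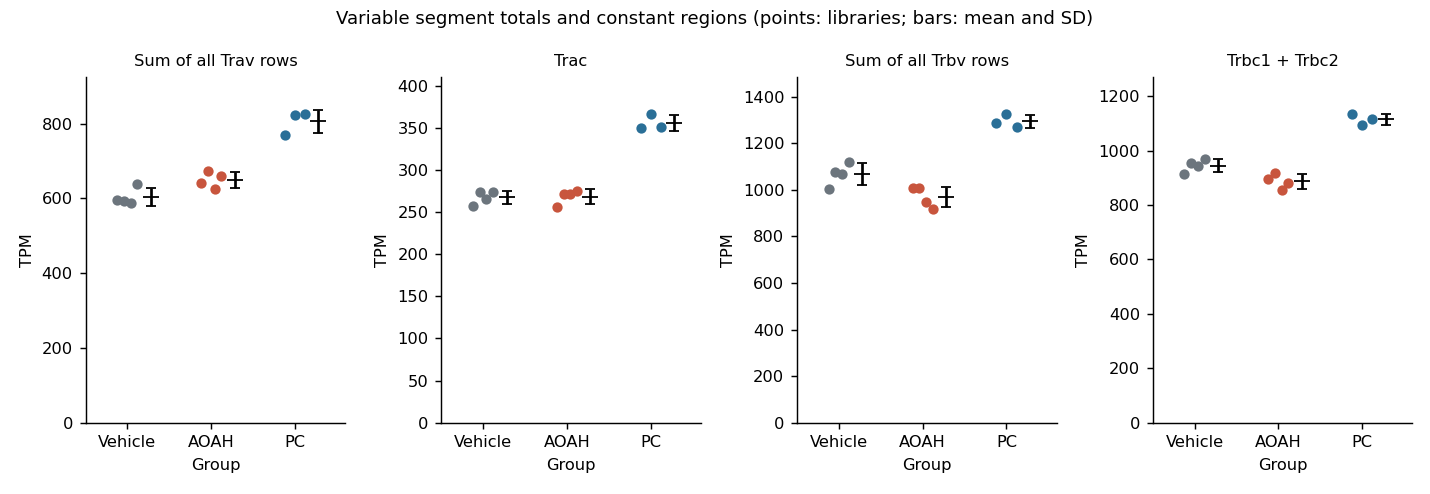
TPM (vertical axes, from 0) of the summed Trav rows, of Trac, of the summed Trbv rows and of Trbc1 plus Trbc2 in each library by group; points are libraries and bars give mean and SD. The PC libraries sit at 769 to 825 TPM for Trav and 1271 to 1324 TPM for Trbv, above every vehicle and AOAH library, and the constant regions have the same order.

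With PC, 12.4% of the segments tested were called, all of them higher than with vehicle, where 19.5% of all genes were called in either direction. Each segment was tested on log2(TPM + 1) with limma, fitted with all 11630 genes of at least 1 TPM on average in PC and vehicle 1 to 3, and called at a Benjamini-Hochberg adjusted p under 0.05 over all genes. Of 113 segments tested, 14 rose (8 Trav, 6 Trbv) and 0 fell, where 8.26% of all genes rose and 11.2% fell. By locus, 8.7% of Trav and 28.6% of Trbv were called. The median log2 change was 0.36 over 92 Trav and 0.33 over 21 Trbv, against -0.01 over all genes. Counted without regard to the test, 81 of 92 Trav and 19 of 21 Trbv were higher with PC, and without the filter 96 of 115 and 20 of 23. In 30 of the 113 segments all PC libraries lay above vehicle 1 to 3 (17.9% of all genes) and in 2 below (21.4%), and 39.2% of all genes showed no overlap either way. At an unadjusted p under 0.05 the segments numbered 34 of 113, where 33.6% of all genes passed. When segment rows were summed by family, 17 of 18 Trav and 16 of 18 Trbv families tested had a positive change. Those called were 4 Trav families (Trav6, Trav7, Trav9 and Trav12, at 0.60, 0.59, 0.64 and 0.53) and 3 Trbv families (Trbv13, Trbv16 and Trbv4).

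The called segment of lowest adjusted p was Trav12-1, which stood at 14.9, 12.5 and 11.8 TPM in PC 1 to 3 and at 5.48, 4.86 and 5.85 TPM in vehicle 1 to 3. The groups did not overlap, and the log2 change was 1.13 ± 0.10 (SE, limma adjusted p = 0.00122). Signal per Trav row was low, with a median normalized signal of 5.56 in the authors' deposited table for PC. The median standard error of the log2 change there was 1.33. Whether counting noise in such low rows exceeds the limma standard errors was not tested. Trav12-1 and Trav12-3 end in the same 45 bases, as printed above, and the sum of the 3 rows of Trav12-1 and its d and n copies rose by 1.25 (adjusted p = 0.00299). Trav7-2 stood at 34.0, 46.8 and 51.0 TPM with PC and at 25.1, 25.4 and 21.4 TPM with vehicle 1 to 3 (0.83 ± 0.15, limma adjusted p = 0.0116). That call ended in 1 fit over all 11 libraries (0.621), which include AOAH 1, listed at 0. Trav9-2 (0.78) and Trav9n-4 (0.69) rose as well, from 5.55 ± 0.925 to 10.3 ± 1.91 TPM and from 2.81 ± 0.165 to 5.20 ± 0.910 TPM (SD, n = 3 in each group), and with vehicle 4 included Trav9n-4 stood at adjusted p = 0.0988. In 1 fit over all 11 libraries Trav9n-4 stood at 0.0799. With each locus rescaled to the same total, Trav7-2, Trav9-2 and Trav9n-4 stood at limma adjusted p of 0.0700, 0.103 and 0.0831. Trav15n-1 was listed at 0 in vehicle 1 to 3 and at 4.07, 5.02 and 2.07 TPM with PC, so no fold is given, and Trav7-1 stood at 0, 1.14 and 0 TPM with vehicle and 2.88, 3.93 and 4.94 TPM with PC. Both are low rows. Trav4-4-dv10 (0.83) was called at adjusted p = 0.0193, but vehicle 4 held 16.2 TPM, as high as the PC libraries (16.0, 15.3 and 12.2 TPM), and with vehicle 4 included the adjusted p was 0.209. That call also ended without PC 1 (adjusted p = 0.0621) or PC 2 (0.0676). Trav3-1 (0.89, adjusted p = 0.0185) was lost without PC 3 (0.0627), vehicle 1 (0.0589), vehicle 2 (0.0501) or vehicle 3 (0.0515).

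Among beta segments, Trbv16 rose from 53.9, 60.4 and 60.8 TPM in vehicle 1 to 3 to 84.9, 91.4 and 83.1 TPM in PC 1 to 3, by 0.56 ± 0.06 (SE, limma adjusted p = 0.00188). Trbv13-2 rose from 75.0, 89.1 and 85.1 TPM to 121, 114 and 118 TPM, by 0.50 ± 0.06 (adjusted p = 0.00313). Trbv4 rose from 27.4, 26.5 and 29.1 TPM to 34.3, 44.1 and 42.2 TPM, by 0.52 ± 0.10 (adjusted p = 0.0118). In all 3 the PC libraries lay above vehicle 1 to 3, and the calls held when any single library was left out. Trbv12-2 (0.44), Trbv13-3 (0.38) and Trbv13-1 (0.33) were called at adjusted p of 0.033, 0.0447 and 0.0306. Each of those 3 calls rested on single libraries: Trbv12-2 was lost without PC 1 (0.0924), PC 2 (0.106) or PC 3 (0.0684), Trbv13-3 without PC 2, PC 3, vehicle 1 or vehicle 3 (0.0877, 0.068, 0.13 and 0.125), and Trbv13-1 without PC 1 or any vehicle library (0.0697, 0.0763, 0.0821 and 0.0781). With batch as a block the last 2 stood at 0.0667 and 0.062, and with vehicle 4 included at 0.0897 and 0.0731.

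**Figure D4:**
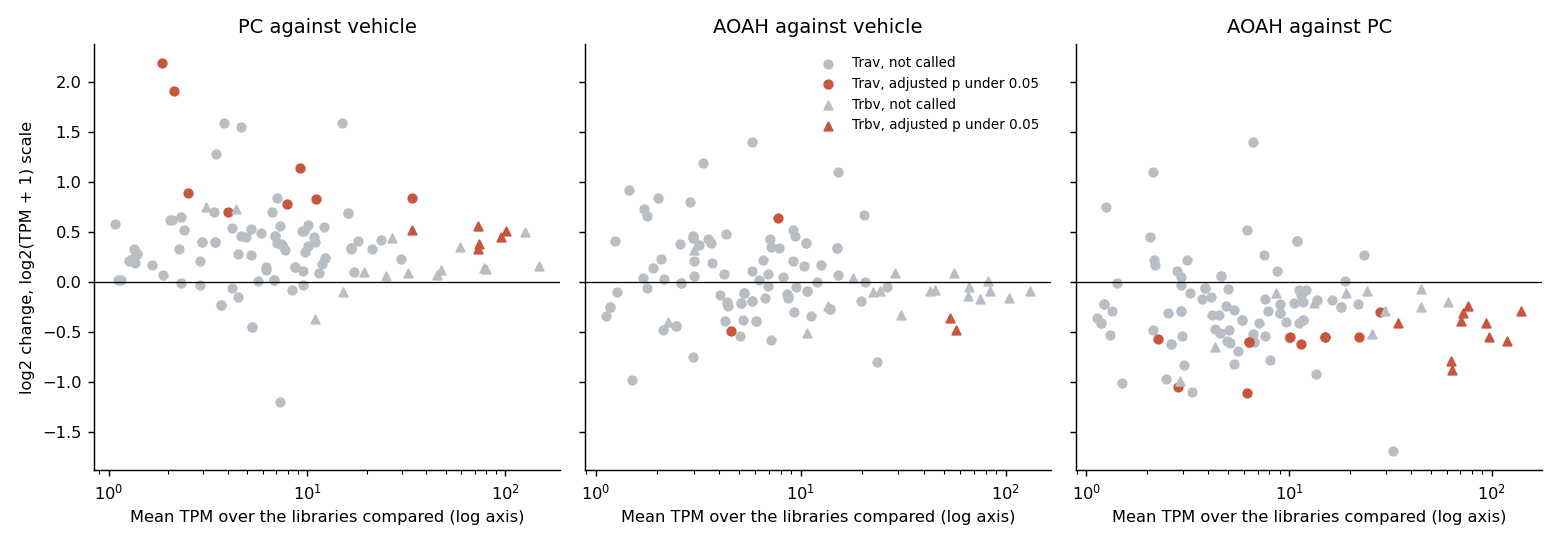
Change of every tested segment on the log2(TPM + 1) scale (vertical axis) against its mean TPM over the libraries compared (horizontal log axis) for PC against vehicle, AOAH against vehicle and AOAH against PC; circles are Trav, triangles Trbv, and red marks an adjusted p under 0.05. The red points are 14 above 0 in the first panel, 1 above and 3 below 0 in the second, and 21 below 0 in the third.

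When each locus was rescaled to the same total in every library, so that a change is one of share within the locus, the medians were near 0 and 8 segments were called for PC, 5 with a larger and 3 with a smaller share. The share of all genes called in that fit is not given here. In the main fit it was 19.5%, so this count does not set segments apart from other genes. Trav12-1 (0.74, limma adjusted p = 0.00775), Trbv16 (0.26, 0.0056) and Trbv13-2 (0.20, 0.0367) took a larger share of their locus, beside the low rows Trav15n-1 and Trav7-1. Trbv29, the most abundant beta segment, took a smaller one (-0.15, adjusted p = 0.0403), as did Trav4d-3 and Trav4n-3, which hold the same values.

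AOAH moved few segments, in both directions. Of 112 tested among 11561 genes, 4 were called, 3.57%, where 25.2% of all genes were, 13.1% higher and 12.1% lower. Groups did not overlap for 1 segment that was higher (15.1% of all genes) and 4 that were lower (13.7%), where 28.8% of all genes showed no overlap either way. The median log2 change was -0.01 over 91 Trav, of which 45 were higher, and -0.10 over 21 Trbv, of which 5 were higher, against 0.01 over all genes. Trbv13-3 fell from 60.2, 69.3, 61.1 and 77.2 TPM in vehicle 1 to 4 to 51.8, 48.8, 47.3 and 41.7 TPM in AOAH 1 to 4, with no overlap (-0.49 ± 0.09 SE, limma adjusted p = 0.00468). Trav19 fell from 6.18, 4.81, 5.66 and 5.34 TPM to 4.13, 2.67, 3.67 and 4.03 TPM (-0.50 ± 0.12, adjusted p = 0.0147), also with no overlap. These 2 calls held when any single library was left out, but in 1 fit over all 11 libraries Trav19 stood at adjusted p = 0.0548. Trbv16 fell from 53.9, 60.4, 60.8 and 65.6 TPM to 50.0, 52.3, 37.8 and 46.6 TPM (-0.37 ± 0.10, adjusted p = 0.0259), a call that ended when batch was a block (0.0511) and when AOAH 4, vehicle 2, vehicle 3 or vehicle 4 was left out (0.0584, 0.0623, 0.0561 and 0.0702). Trav12-1 was the only segment to rise, from 5.48, 4.86, 5.85 and 7.10 TPM to 11.4, 9.38, 6.55 and 11.6 TPM, with AOAH 3 inside the vehicle range (0.63 ± 0.17, adjusted p = 0.0238). It was lost without AOAH 1, AOAH 2, AOAH 4, vehicle 1 or vehicle 2 (0.0607, 0.0518, 0.0634, 0.0548 and 0.0667), with no filter (0.0597) and with its copies summed (0.0661). As shares of the locus, Trbv13-3, Trav19 and Trav12-1 kept their calls (-0.35, -0.58 and 0.54), and Trbv16 stood at -0.23 (adjusted p = 0.0562).

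Summing copies changed the reading of Trav7-2 with AOAH. The row itself stood at -0.81 ± 1.14 on the log2 scale (limma adjusted p = 0.652), with AOAH 1 listed at 0. Trav7-2 and Trav7d-2 together stood at 46.4, 30.9, 39.9 and 26.0 TPM in AOAH 1 to 4 and at 25.1, 25.4, 21.4 and 20.5 TPM in vehicle 1 to 4, and the sum rose by 0.58 (adjusted p = 0.0338). The summed copies of Trav14-3 rose too, at 0.54 (adjusted p = 0.0132). In PC, which shares vehicle 1 to 3 with this comparison, the same sums rose by 0.83 (adjusted p = 0.0111) and 0.43 (adjusted p = 0.0454). The median over the 46 summed Trav segments tested was 0.18 with AOAH, 28 of them higher, and 0.45 with PC, 42 of them higher.

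Set directly against each other, the 2 treatments differed in 21 of 117 segments tested, all lower with AOAH (11 Trav, 10 Trbv), or 17.9%, where 45.8% of all 11596 genes differed and 21.5% were lower. The median log2 difference was -0.31 over 96 Trav and -0.32 over 21 Trbv, against 0.00 over all genes, and all 21 Trbv had a negative value. Groups did not overlap for 19 segments that were lower (23.9% of all genes) and 1 that was higher (26.8%), where 50.7% of all genes showed no overlap either way. The most negative values among the calls were those of Trav6-3 (-1.11) and Trav7d-4 (-1.06), both low rows, and the Trav6-3 call ended without AOAH 4, PC 1, PC 2 or PC 3 (limma adjusted p of 0.0691, 0.0774, 0.0861 and 0.0716) and with batch as a block (0.0713). Among Trbv, Trbv16 was lowest relative to PC, with 50.0, 52.3, 37.8 and 46.6 TPM in AOAH 1 to 4 and 84.9, 91.4 and 83.1 TPM in PC 1 to 3 (-0.89 ± 0.10 SE, limma adjusted p = 3.00e-04). Trbv13-3 followed, with 51.8, 48.8, 47.3 and 41.7 TPM against 74.2, 79.0 and 96.3 TPM (-0.79 ± 0.10, adjusted p = 4.40e-04). Neither segment overlapped between the groups. Trbv14 (-0.60), Trbv12-2 (-0.42), Trbv12-1 (-0.40) and Trbv3 (-0.24) were also lower, with adjusted p from 3.08e-04 to 0.00416, and so were the alpha pairs of equal rows Trav14d-1 and Trav14n-1 (-0.56) and Trav9d-3 and Trav9n-3 (-0.61). Together with Trav7d-4 these 11 held when any single library was left out. The other 10 calls each ended without at least 1 library, and without PC 2 the count was 12. Trbv13-2 was one of them (-0.55, adjusted p = 0.02), with 0.0607, 0.0503 and 0.0598 without PC 1, 2 and 3. As shares of the locus 5 segments were lower and 5 higher with AOAH, the lower ones including Trbv16 (-0.48, adjusted p = 0.00287) and Trbv13-3 (-0.38, 0.0107) and the higher ones Trbv1 (0.20), Trbv3 (0.17), Trbv5 (0.33) and Trbv19 (0.30). In the main fit 45.8% of all genes were called, so these counts do not set segments apart either.

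The authors' deposited tables called no segment at an adjusted p under 0.05. Of 134 segments matched in each, only those with an adjusted p could be called, which were 35 Trav and 19 Trbv for AOAH and 9 Trav and 17 Trbv for PC. The authors' deposited tables called 17.1% of all rows with an adjusted p for AOAH and 13.4% for PC. At an unadjusted p under 0.05 the authors' deposited tables held 0 of the segments for AOAH, where 3417 of 23418 rows passed, and 1 for PC, Trbv16, where 2626 of 24346 passed. The authors' deposited table for PC gave Trbv16 a log2 change of 0.58 ± 0.29 (its own standard error, adjusted p = 0.193) and Trbv13-2 one of 0.52 ± 0.32 (adjusted p = 0.352). In the authors' deposited table for AOAH, Trbv13-3 had -0.50 ± 0.35 (adjusted p = 0.4). Their signs were those of the limma fits above, with larger standard errors. The median base mean, the authors' normalized signal averaged over libraries, was 5.56 for Trav and 66.2 for Trbv in the authors' deposited table for PC, and the base means summed to 1106 over Trav and 1779 over Trbv. Over all rows of that table they summed to 23887967.

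The other chains of the receptor were higher with PC. Trac, the alpha constant region, stood at 350.1, 366 and 350.3 TPM in PC 1 to 3 and at 257, 274 and 266 TPM in vehicle 1 to 3 (0.42 ± 0.03 SE, limma adjusted p = 8.16e-04). Trbc1 (0.20) and Trbc2 (0.28), the beta constant regions, rose with PC too, as did all 6 of Cd3d, Cd3e, Cd3g, Cd247, Cd8a and Cd8b1, the CD3 signalling chains and the CD8 coreceptor, with a median of 0.17. The largest rise among the 6 was in Cd247, the zeta chain (0.32, adjusted p = 0.00173), and the smallest in Cd3d (0.14, adjusted p = 0.0441), which was lost with TMM rescaling (0.0577), with batch as a block (0.078) and without PC 1, 2 or 3 or vehicle 1 or 3 (0.096, 0.108, 0.12, 0.11 and 0.106). With AOAH, 5 of these 6 fell (median -0.22) and Cd3e did not pass the test, while Trac had a log2 change of 0.01 (adjusted p = 0.91). Trbc1 stood at -0.10 (adjusted p = 0.0493, lost in 6 of 8 fits with a library left out, at 0.0372 to 0.123 over the 8) and Trbc2 at -0.09 (adjusted p = 0.0505). The ratio of summed segments to constant region was 2.16 to 2.51 for alpha and 1.04 to 1.21 for beta over the 11 libraries. Of the genes used in rearrangement (Ptcra, Rag1, Rag2, Dntt) none reached the filter. Of the gamma and delta chain genes listed, 0 of 6 tested passed with PC, and 1 of 5 with AOAH, Trdc, which fell from 1.37 ± 0.109 to 0.86 ± 0.176 TPM (SD, n = 4 in each group). Trav1, the segment of the invariant receptor of MAIT cells, was present at 2.22 to 13.8 TPM and was called in no comparison. Of the segment of NKT cells, the rows Trav11d and Trav11n are listed, at 0 to 5.51 TPM, and Trav11 was not analysed here.

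The repertoire table counts rearranged receptor sequences in the same RNA. TRA clonotypes, which are distinct alpha rearrangements, numbered 1514, 1616 and 1600 in PC 1 to 3, against 1112, 1104, 991 and 1264 in vehicle 1 to 4 and 1070, 1108, 1139 and 1057 in AOAH 1 to 4. TRB clonotypes numbered 2745, 2873 and 2986 with PC, 2264, 2237, 2017 and 2649 with vehicle and 1960, 2114, 2129 and 1892 with AOAH. All PC libraries lay above all others for both chains, and vehicle 4 was the highest vehicle library for both. Against vehicle 1 to 3 the ratio of means was 1.47 for TRA and 1.32 for TRB, with exact permutation p = 0.1 for each, the smallest possible, and 0.171 after adjustment over 24 tests. Within batches 1, 2 and 3 TRA clonotypes were higher with PC by 402, 512 and 609. AOAH against PC gave ratios of 0.694 and 0.706 (exact p = 0.0286 each, adjusted p = 0.114). With AOAH against vehicle the ratio was 0.978 for TRA (exact p = 0.714) and 0.883 for TRB (exact p = 0.0857, adjusted p = 0.171), with overlapping ranges, and within batches 1 to 4 TRA clonotypes differed by -42, 4, 148 and -207.

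**Figure D5:**
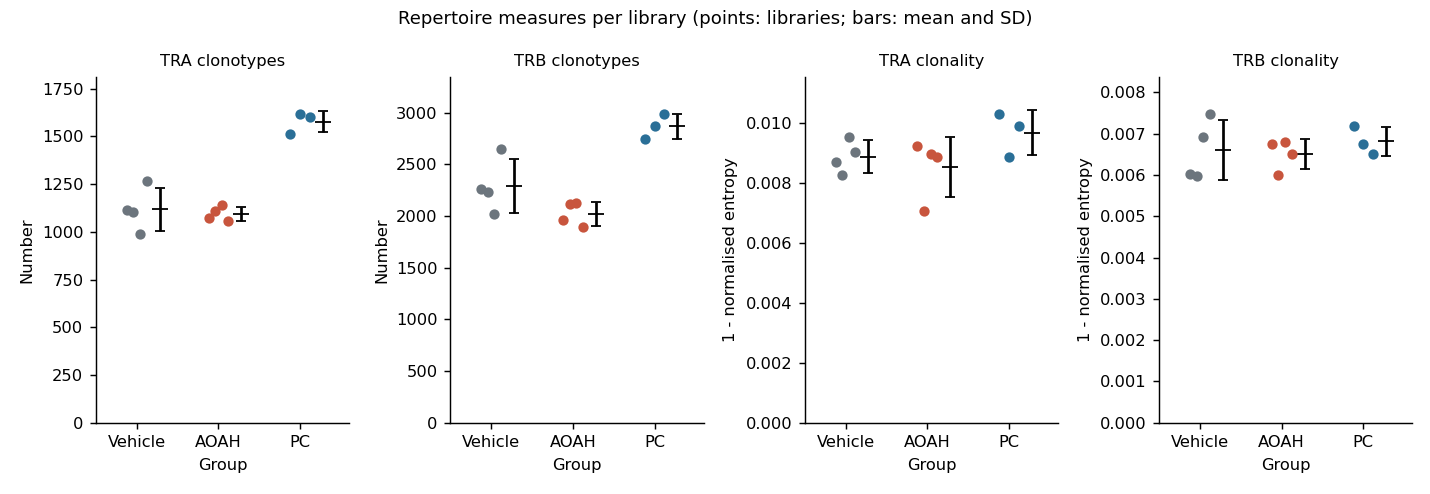
Numbers of TRA and TRB clonotypes and their clonality (vertical axes, from 0) in each library by group; points are libraries and bars give mean and SD. Clonotypes number 1514 to 1616 (TRA) and 2745 to 2986 (TRB) with PC, above every other library, while clonality lies between 0.00596 and 0.0103 in all libraries with overlapping groups.

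Clonotype numbers moved with the clone numbers that the table gives beside them, whose definition is not given in the sources used here. TRA clones numbered 1836, 1934 and 1932 with PC, 1308, 1290, 1184 and 1508 with vehicle and 1273, 1293, 1349 and 1264 with AOAH. Within batches 1, 2 and 3, PC minus vehicle was 528, 644 and 748 for TRA clones and 662, 817 and 1134 for TRB clones. The clone number exceeded the clonotype number by 1.17 to 1.21 times for TRA and 1.14 to 1.19 times for TRB. Per clone, TRA clonotypes were fewer with PC (0.825, 0.836 and 0.828) than with vehicle 1 to 3 (0.85, 0.856 and 0.837). The table shows no scaling to a common number of receptor reads, and the part of sequencing depth in these numbers was not tested. Entropy, in bits, followed the clonotype numbers, at 10.5 to 10.6 for TRA and 11.3 to 11.5 for TRB with PC and 9.86 to 10.2 and 10.9 to 11.3 with vehicle.

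Clonality, which here equals 1 minus entropy divided by the log2 of the clonotype number, was close to 0 in all groups. TRA clonality was 0.00968 ± 7.42e-04 with PC (SD, n = 3), 0.00888 ± 5.47e-04 with vehicle and 0.00853 ± 9.93e-04 with AOAH (SD, n = 4). TRB clonality was 0.00681, 0.0066 and 0.00651 in the same order. No comparison of clonality passed (exact permutation p from 0.2 to 0.8), but these tests could hardly have passed. For PC against vehicle the smallest possible p was 0.1. In the comparisons with AOAH it was 0.0286, and repertoire measures that reached it stood at an adjusted p of 0.114. Clones also numbered only 1.14 to 1.21 per clonotype. With so few per clonotype this measure lies near 0 by its definition, so it says little about the repertoires. The same table lists 0 to 4 clonotypes of IGH, the immunoglobulin heavy chain, per library.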

How the data were processed

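Polyadenylated RNA of the 11 libraries had been sequenced with molecular identifiers, per the labels' protocols. The authors deposited log2(TPM + 1) values for 25562 genes, made with RSEM on mm39 per the submitters' processing notes. The authors also deposited a repertoire table in other units (numbers of clonotypes and clones, entropy in bits, clonality), and 2 comparison tables, in which the base mean is a signal averaged over libraries and the log2 change, Wald score and p-values are the authors' own. PC was compared with vehicle 1 to 3, because the label of vehicle 4 does not name the PC table.

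Genes averaging 1 TPM or more in a comparison's libraries were fitted with limma 3.58.1 (R 4.3.3; trend and robust variance), with Benjamini-Hochberg adjustment over all genes tested and a threshold of 0.05; the scripts were tested on simulated data. Totals and repertoire values were compared by exact two-sided permutation tests (Python 3.11.15, numpy 2.4.6). Segments described singly were those called, with the 10 of highest level in each locus and the receptor genes listed. Trav3-1, Trav7-1, Trav15n-1, copies and pairs named for their values were chosen after these were seen. Members and lists were chosen with earlier results of these data known. Batch numbers were not used to pair libraries in the main fits. Over all genes of at least 1 TPM, deviations from group means correlated at -0.0033 on average over 10 same-batch pairs (-0.0794 to 0.118). Over 30 different-batch pairs the mean was 0.00114 (-0.125 to 0.140). For Trbv shares of the locus the means were 0.0908 (-0.573 to 0.620) and -0.0260 (-0.825 to 0.842). With so few libraries these values cannot exclude pairing. Alternatives were other pseudocounts (0.1, 5), filters, scalings, array weights, batch as a block, 1 fit over 11 libraries, vehicle 4 included, family or copy sums, and each library left out. 1 marker gene is not reported here.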

Additional observations from a re-analysis of the deposited data

Results flagged for a closer look

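In groups of 4 libraries, 7 of 111 values tested had a library far from the other 3, and chance flags about 1 in 20 groups. Vehicle 4 stood apart in 4 of them. Trav9n-4 was at 5.20 TPM in vehicle 4 and at 2.62 to 2.91 TPM in the other vehicle libraries, and summed Trav was 639 TPM against 588 to 597 TPM. Cd3e, a CD3 chain, was at 175 TPM in vehicle 4 against 170.1 to 170.7 TPM, and TRB clones per TRA clone were 2.09 against 1.97 to 1.98. Vehicle 4 does not enter the comparison of PC with vehicle.

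AOAH 1 stood apart in Trac, at 256 TPM against 271 to 275 TPM in the other AOAH libraries, and in Trav7d-2, at 46.4 TPM where the others were listed at 0. The effective number of Trbv segments was 16.3 in AOAH 4, with the other AOAH libraries at 16.1.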

How the results depend on the processing

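No alternative turned the direction of the summed loci. Rescaled to the locus total, calls were no longer all in 1 direction, at 5 higher and 3 lower for PC and 5 higher and 5 lower for AOAH against PC. The counts that follow are of segments only. In the main fits 19.5% (PC), 25.2% (AOAH) and 45.8% (AOAH against PC) of all genes were called. The shares under the alternatives are not given here, so the counts do not set segments apart from other genes. With each library left out in turn, segments called numbered 11 to 20 for PC, 2 to 6 for AOAH and 12 to 25 for AOAH against PC. For PC the count was 9 with no filter, 8 rescaled to the locus total and 7 by families; for AOAH it was 2 by families; for AOAH against PC it was 12, 10 and 11 in the same order. With batch as a replicate block, the counts were 17, 6 and 26. Of the calls, 9 of 14, 2 of 4 and 11 of 21 held with each library left out. For 5, 1 and 6 of them adjusted p stayed under 0.05 in every alternative in which the row was fitted. Low or summed rows were not fitted in all: besides leaving out a library, Trav15n-1 entered 10 settings for PC and Trbv16 13. Among the 6, Trbv3 turned from lower to higher with AOAH when rescaled to the locus total (0.17, limma adjusted p = 0.0141). Trav9d-3 and Trav9n-3, also among the 6, hold the same values.

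Trac with AOAH was -0.0441 under quantile normalization and ran from -0.0131 to 0.0283 with a library left out. Trav7-2 with AOAH was 0.58 with copies summed and ran from -1.33 to 0.45, the highest without AOAH 1. Rescaled to the locus total, AOAH against PC was 0.0132 for Trbv12-1, 0.0922 for Trbv13-1, 0.12 for Trbv29 and 0.17 for Trbv3. Per clone, clonotypes differed by -0.0182 (TRA) and -0.0190 (TRB) for PC and by 0.0151 and 0.00946 for AOAH against PC. For AOAH against vehicle with a library left out, TRA clonotypes ran from -66.5 to 24.5, TRA clones from -73.9 to 34.1, TRA entropy from -0.0809 to 0.0367, TRA clonality from -5.87e-04 to 1.40e-04 and TRB clonality from -2.99e-04 to 2.03e-04, the first 3 being highest without vehicle 4. The causes were not tested. The read depth of each library is unknown, and low signal and copies of alpha segments limit single rows.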

Other observations

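The balance of beta to alpha RNA differed between groups in 3 measures from the same libraries, which were chosen after their values were seen and not tested. TRB clones per TRA clone were 1.97 to 2.09 with vehicle, 1.74 to 1.87 with AOAH and 1.74 to 1.80 with PC. Summed Trbv over summed Trav was 1.68 to 1.82 with vehicle, 1.54 to 1.67 with PC and 1.39 to 1.57 with AOAH. Trbc1 plus Trbc2 over Trac was 3.49 to 3.56, 2.98 to 3.24 and 3.15 to 3.49 in the same order. Vehicle did not overlap the treated groups in the first 2 measures.

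When the 21 tested Trbv segments were divided by their order on chromosome 6 into 3 sets of 7, the middle set (Trbv12-2, Trbv13-2, Trbv13-3, Trbv14, Trbv15, Trbv16 and Trbv17) had the median farthest from 0 in all 3 comparisons. Its median log2 change was 0.44 with PC, against 0.13 and 0.15 in the sets on either side. With AOAH it was -0.33, against -0.09 in each of the others. These comparisons share vehicle libraries, the division was made after the data were seen, and no test was made.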
